A study of Mus musculus with 12 samples.

Results

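The empty vector cells of 2 murine ovarian cancer lines, ID8 and 28-2, were compared gene by gene. All 3 28-2EV and all 3 ID8EV libraries entered the comparison, which makes 6 of the 12 libraries of the series, and all 57010 genes of the deposited tables were considered. EV cells carried a lentivirus with EGFP, a puromycin resistance gene and mCherry but no miR-200 sequence, and both EV lines were kept in 30 µg/ml puromycin in DMEM with serum, as 2D cultures. The other 6 libraries, ID8-200f and 28-2-200f, came from the same lines after infection with lentiviruses for both miR-200 clusters. Those cells were under puromycin and hygromycin, at 40 and 50 µg/ml in ID8-200f and at 60 and 1000 µg/ml in 28-2-200f, and they are used below only to set the same line contrast beside the EV one. The study describes its 3 libraries per line as independent samples, and each line was infected and selected as a population whose number of founding cells is not given in the sources used here.

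ID8 is a widely used mouse model of ovarian cancer whose cells grow in the peritoneal cavity of syngeneic mice. Ovarian surface epithelium and mesothelium are simple epithelia that share keratins, Wt1 and uroplakins, and they keep N-cadherin and vimentin, so they stand between the epithelial and the mesenchymal state. In the epithelial to mesenchymal transition (EMT), cells give up E-cadherin and tight junctions under repressors such as Zeb1, Zeb2 and the Snail proteins. Lines of a common tumour type can differ widely in surface proteins, matrix and silenced genes before any vector is tested, and the empty vector libraries measure that starting point.

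Total counts were 17143203 to 23063875 in ID8EV and 16390953 to 18015330 in 28-2EV. At least 1 read was found for 19896 to 20081 genes in ID8EV and for 18438 to 18809 in 28-2EV. The 3 28-2EV libraries varied more among themselves than the ID8EV libraries did. The SD of a library's log2 CPM (a gene's share of the library's reads, scaled for library size) around its group's mean was 0.178 to 0.223 in ID8EV and 0.347, 0.557 and 0.431 in 28-2EV replicates 1, 2 and 3. In 28-2EV replicate 2 the median interferon-stimulated gene stood 1.07 log2 units above the group's mean, and the median DNA replication and mitosis gene 0.58 above it. 28-2EV replicate 3 stood 0.48 below the mean for replication and mitosis genes, and replicate 1 stood 0.70 below it for interferon-stimulated genes. Counts of the gene lists are therefore also given without 28-2EV replicate 2 where they moved by over 1.5 times in a direction.

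The labels were set against marker genes. Wt1, a transcription factor of mesothelium and ovarian surface, measured 1150, 1160 and 1340 CPM in ID8EV and 759, 767 and 1070 CPM in 28-2EV. The summed CPM of 26 mesothelial and ovarian surface markers was 9660 to 12000 in ID8EV and 6720 to 9080 in 28-2EV. Leukocyte markers summed to 6.92 to 9.83 CPM in ID8EV and 5.47 to 8.26 CPM in 28-2EV, with Ptprc, the leukocyte phosphatase CD45, at 3 counts and 0 counts in all. Endothelial markers summed to at most 2.42 CPM in ID8EV and 3.47 CPM in 28-2EV, with Cdh5 at 0 in every library. The 6 fibroblast markers, which include Col1a1 and Dcn, summed to 473 to 524 CPM in ID8EV and 85.5 to 495 CPM in 28-2EV. The 6 granulosa and steroidogenic markers summed to 35.7 to 48.5 CPM in ID8EV. They were uneven in 28-2EV, at 77.8, 22.2 and 165 CPM in replicates 1, 2 and 3. Both lines carried mesothelial and ovarian surface markers. A bulk library cannot tell fewer cells of a type from less RNA per cell.

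More genes were called lower than higher in 28-2EV, in a proportion that moved when 28-2EV replicate 2 was left out. After the filter on low counts, 13073 genes were tested with edgeR's quasi-likelihood test, and a gene passed at the study's cut-off, which requires an adjusted p below 0.01 and a log2 fold change beyond 1 in either direction. At that cut-off 112 genes were lower in 28-2EV (0.857% of those tested) and 16 were higher (0.122%), 128 in all (0.979%). At an adjusted p under 0.05 alone, 330 genes were lower (2.52%) and 116 higher (0.887%), 446 together (3.41%). The median log2 fold change of the lower genes was -4.74 and that of the higher genes 2.38, against 0.02 over all genes tested. For the lists below, further counts are given for an unadjusted p under 0.05, which 9.13% of all genes met as lower and 7.43% as higher, and at an adjusted p under 0.05 for DESeq2, 5% lower and 3.11% higher, and for edgeR without 28-2EV replicate 2, 5.41% lower and 4.9% higher. In all 128 the 3 values of one line lay outside the 3 of the other, which held for 24.4% of all genes tested. The 128 were picked by these same values, so that separation is no further support. The count depended on single libraries: 436 genes passed without 28-2EV replicate 2, 292 of them lower and 144 higher. Without 28-2EV replicate 1 59 passed, and 23, 10 and 25 without ID8EV replicates 1, 2 and 3. All 128 genes passed again without 28-2EV replicate 2, 51 of them without 28-2EV replicate 1, and 23, 10 and 25 of them without ID8EV replicates 1, 2 and 3. Every one of the 128 kept its direction in those 5 fits. Of the 123 genes named by rule, 59, 57 and 54 lost their call at an adjusted p under 0.05 without ID8EV replicates 1, 2 and 3, 30 without 28-2EV replicate 1 and 3 without 28-2EV replicate 3.

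**Figure D1:**
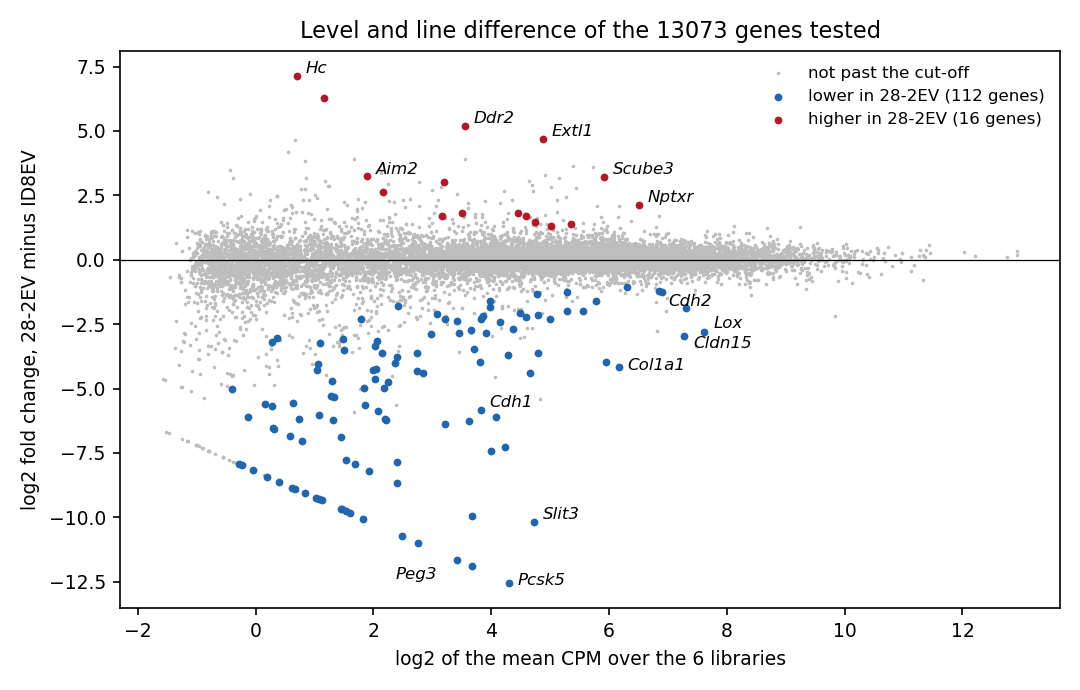
Each point is a gene, with the log2 of its mean CPM over the 6 EV libraries on the x axis and its log2 fold change, 28-2EV minus ID8EV, on the y axis. The 112 genes lower in 28-2EV (blue) reach far further from 0 than the 16 higher ones (red), and the sloping line of points at the lower left is made of genes at 0 counts in all 3 28-2EV libraries, whose fitted fold changes depend on the prior count.

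A group of genes was read in ID8EV and not at all in 28-2EV. With at least 10 counts in each ID8EV library and 0 in each 28-2EV library, 56 genes met the rule, and 0 genes met it the other way round, or 1 without ID8EV replicate 3 or 28-2EV replicate 3, although 12654 genes in ID8EV and 11836 in 28-2EV had at least 10 counts in each library. Of the 56, 50 were tested, 50 had an adjusted p under 0.05 and 21 passed the cut-off. Since the rule itself sets them apart, those calls are a description. Total counts reached higher in ID8EV and the 28-2EV libraries varied more, so the rule was not equally strict both ways. What that added to 56 against 0 genes was not tested. With a floor of 3 counts over the 3 28-2EV libraries, the 56 genes were at least 10.1-fold to 695-fold lower in 28-2EV.

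Pcsk5, a proprotein convertase that cleaves secreted precursors, had 528, 719 and 1226 counts in ID8EV and was at least 695-fold lower in 28-2EV. Peg3, an imprinted zinc finger gene expressed from the paternal copy, had 491, 458 and 603 counts in ID8EV and was at least 436-fold lower. Nynrin, which holds retrovirus-derived domains, had 321, 392 and 611 counts and was at least 372-fold lower. All 3 genes were read in every ID8EV library at 321 counts or more and in no 28-2EV library. Prrg3, a transmembrane Gla-domain protein, had 200, 289 and 344 counts and was at least 234-fold lower. Armcx3, an X-linked mitochondrial outer membrane protein, had 173, 238 and 279 counts and was at least 194-fold lower. Igfbp3, a binding protein for insulin-like growth factors, followed with 153, 134 and 137 counts, and Uchl1, a deubiquitinase of neurons and germ cells, with 80, 129 and 170. Sgce, the imprinted epsilon-sarcoglycan, had 83, 128 and 144 counts. Erbb4, a receptor of the EGF receptor family, had 92, 98 and 150 counts and was at least 95.5-fold lower. The 56 included the transcription factors Emx2, Zic2, Zic5, Eomes, Foxb2, Foxp2, Ebf4, Glis3, Sim1 and Trps1, named here after their values were seen.

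Absence of reads in 28-2EV did not always carry over to the 28-2-200f libraries. Of the 56 genes, 9 also had 0 counts in all 3 28-2-200f libraries, among them Prrg3, Wtip, Smad1 and Fbn2. Another 9 had at least 10 counts in each of them. Armcx3 had 231, 155 and 302 counts in 28-2-200f, Epcam 269, 191 and 432, and Trps1 272, 180 and 290. Pcsk5 had 123, 87 and 94 and Peg3 53, 46 and 39. Nynrin had 188 and 113 counts in the first and the second 28-2-200f library and 1 in the third, so it differed within that group. Those groups differ from EV in the miR-200 vectors and in the drugs at once, and their parts cannot be told apart.

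**Figure D2:**
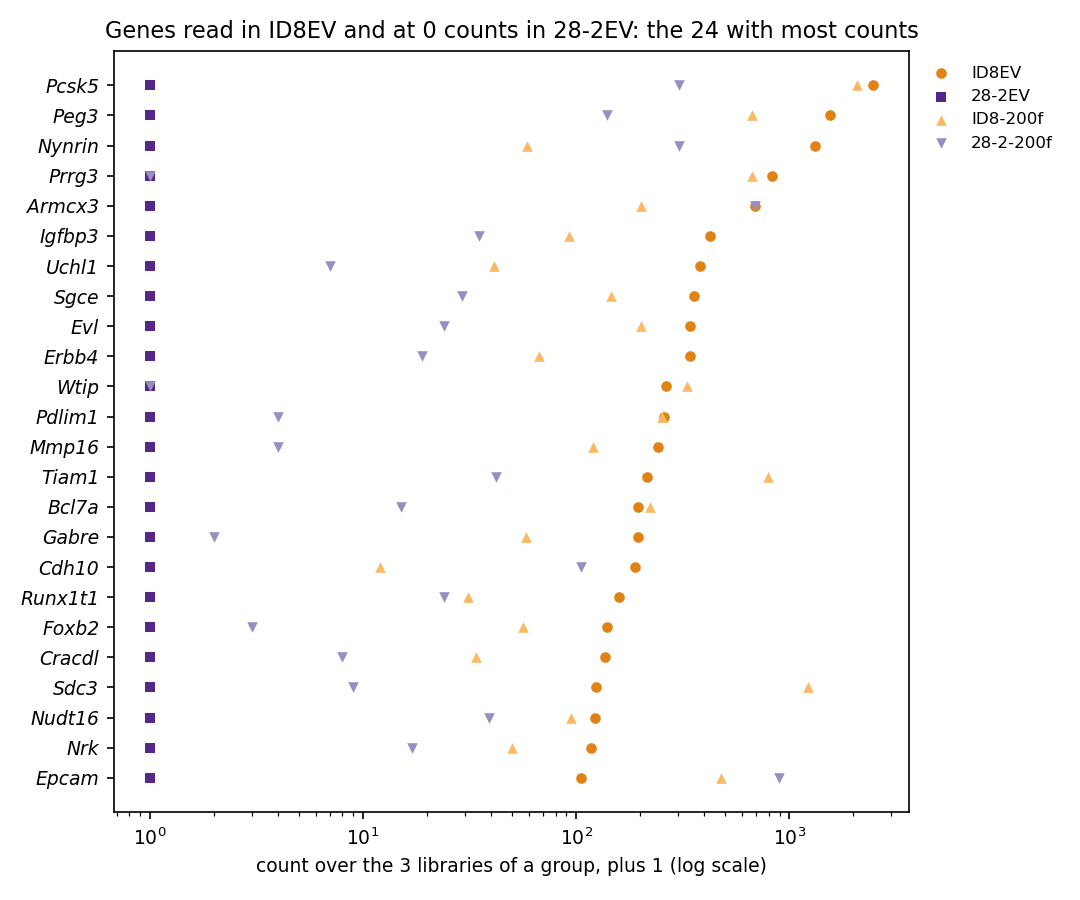
For the 24 genes with most counts among those read in ID8EV and at 0 in 28-2EV, the x axis gives the count over the 3 libraries of each group, plus 1, on a log scale. All 28-2EV squares lie at 0 counts by the rule, while 28-2-200f triangles range from 0 for Prrg3 and Wtip to 892 counts for Epcam.

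Promoter sequences of the 3 genes with most counts are shown because unread genes are often studied for CpG methylation of their promoters, which these data do not measure. Each run holds 250 bases before and 50 bases after the start of the gene in RefSeq (GRCm38.p6), 5′ to 3′ on the gene's strand, and the capitals mark CG dinucleotides.
Pcsk5, chr19:17837583-17837882, minus strand, 22 CG: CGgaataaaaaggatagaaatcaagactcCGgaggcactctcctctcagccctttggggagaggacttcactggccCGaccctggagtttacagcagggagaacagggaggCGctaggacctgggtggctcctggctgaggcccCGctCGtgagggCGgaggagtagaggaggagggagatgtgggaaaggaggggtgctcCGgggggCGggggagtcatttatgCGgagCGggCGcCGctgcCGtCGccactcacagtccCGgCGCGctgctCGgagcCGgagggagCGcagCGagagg
Peg3, chr7:6730370-6730669, minus strand, 13 CG: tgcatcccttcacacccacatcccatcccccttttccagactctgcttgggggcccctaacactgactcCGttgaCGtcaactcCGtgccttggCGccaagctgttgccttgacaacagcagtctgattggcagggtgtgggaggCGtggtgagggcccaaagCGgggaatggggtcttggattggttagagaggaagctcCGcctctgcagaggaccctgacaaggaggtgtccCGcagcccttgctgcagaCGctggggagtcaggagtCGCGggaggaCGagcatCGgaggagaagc
Nynrin, chr14:55853865-55854164, plus strand, 22 CG: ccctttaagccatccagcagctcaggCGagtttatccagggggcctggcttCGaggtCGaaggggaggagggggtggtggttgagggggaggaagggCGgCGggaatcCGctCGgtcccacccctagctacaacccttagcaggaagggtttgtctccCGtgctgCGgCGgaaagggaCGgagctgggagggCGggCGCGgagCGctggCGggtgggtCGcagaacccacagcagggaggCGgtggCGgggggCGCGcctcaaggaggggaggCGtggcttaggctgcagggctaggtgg
Of the 56 genes, 40 matched a promoter in the RefSeq table, 71.4%, and a difference in CG content was not tested. Among those 40 the median number of CG per 300 bases was 22, and among the 9736 tested genes with a match, 74.5% of those tested, it was 21. The motif, the letters CG, which read the same on both strands, was present in 99.7% of those 9736 promoters.

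Epithelial adhesion genes were lower in 28-2EV where they differed. Cdh1, E-cadherin, the cadherin of adherens junctions, measured 29.0, 28.5 and 26.2 CPM in ID8EV and 0.829, 0.174 and 0.434 CPM in 28-2EV. The lowest ID8EV value was far above the highest 28-2EV value, and the mean was 58.2-fold higher in ID8EV (log2 fold change -5.83, SE 0.408, adjusted p = 0.000968, edgeR). Epcam, an adhesion molecule and tumour antigen of epithelia, had 26, 32 and 46 counts in ID8EV and 0 in 28-2EV, at least 29.2-fold lower. Cldn15, a pore-forming claudin of tight junctions, fell from 252, 267 and 306 CPM in ID8EV to 31.6, 32.6 and 41.8 CPM in 28-2EV (log2 fold change -2.96, SE 0.164, adjusted p = 0.000501). Cldn3, another claudin, fell from 9.88, 9.94 and 11.2 CPM to 3.26, 4.36 and 2.97 CPM (log2 fold change -1.55, adjusted p = 0.0139). In the list of 44 epithelial adhesion and junction genes, 25 were tested, these 4 were lower and 0 were higher, and the median log2 fold change was -0.32. At an unadjusted p under 0.05, 7 were lower and 1 higher, DESeq2 called 4 lower and 1 higher, and edgeR without 28-2EV replicate 2 4 lower and 2 higher. Epcam and Cldn3 lost their calls without any 1 of the ID8EV libraries (adjusted p of 0.0619 to 0.0896, edgeR), and Cldn3 also without 28-2EV replicate 1 (0.0575). Jup, Tjp1, F11r and Dsg2, which build plaques and junctions of many epithelia, had adjusted p of 0.166 to 0.366.

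Vimentin and the EMT repressors that could be tested showed no called difference. Vim, vimentin, measured 2480, 2530 and 2410 CPM in ID8EV and 2240, 3480 and 2490 CPM in 28-2EV, and the groups overlapped (log2 fold change 0.15, SE 0.193, adjusted p = 0.749). Zeb1, a repressor of Cdh1, measured 21.4, 21.4 and 20.5 CPM in ID8EV and 25.8, 20.7 and 23.9 CPM in 28-2EV (log2 fold change 0.15, SE 0.145, adjusted p = 0.651). Zeb2 measured 44.9, 42.0 and 43.9 CPM against 52.1, 63.7 and 52.2 CPM, values that did not overlap but missed the threshold (log2 fold change 0.36, SE 0.131, adjusted p = 0.23). Snai2, or Slug, stood at 28.8 CPM in 28-2EV replicate 1 and at 8.78 and 9.04 CPM in the others, against 8.62, 6.19 and 6.70 CPM in ID8EV (adjusted p = 0.304), so the group was uneven. Snai1 had an adjusted p of 0.783 and Twist2 one of 0.326, and Twist1, with 6 counts over ID8EV and 0 over 28-2EV, was too low to test. In the list of 8 EMT genes chosen for RT-qPCR, 7 could be tested, and Cdh1 alone was called, with edgeR and with DESeq2.

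N-cadherin was lower in 28-2EV as well. Cdh2 measured 163, 154 and 168 CPM in ID8EV and 62.7, 72.8 and 75.7 CPM in 28-2EV, where it was 2.29-fold lower (log2 fold change -1.20, SE 0.122, adjusted p = 0.00338). Cdh10, a type II cadherin, had 51, 60 and 77 counts in ID8EV and 0 in 28-2EV. Of the 11 other cadherins listed, only these 2 were tested, and both were lower. P-cadherin, Cdh3, had an adjusted p of 0.257.

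Keratins showed no called difference. Krt8 measured 981, 1020 and 1100 CPM in ID8EV and 1040, 1280 and 1120 CPM in 28-2EV (adjusted p = 0.634), and its partner Krt18 566, 583 and 630 against 681, 994 and 799 CPM (adjusted p = 0.215). Krt19, a keratin of simple epithelia, measured 1510, 1590 and 1650 CPM in ID8EV and 1160, 1030 and 1020 CPM in 28-2EV, without overlap (log2 fold change -0.57, SE 0.131, adjusted p = 0.0707). Krt7, Krt10, Krt14, Krt15 and Krt80, at group means of 0.405 to 51.2 CPM, had adjusted p of 0.434 to 0.946. Of 8 keratins tested none passed an adjusted p of 0.05 with edgeR, 1 was lower and 1 higher at an unadjusted p under 0.05, and DESeq2 called 1 lower, as did edgeR without 28-2EV replicate 2.

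Some markers of mesothelium and ovarian surface were lower in 28-2EV, and none was called higher. Upk3b, a uroplakin of mesothelium, fell from 1220, 1380 and 1880 CPM in ID8EV to 249, 253 and 491 CPM in 28-2EV (log2 fold change -2.17, SE 0.317, adjusted p = 0.0139). Podxl, podocalyxin, an anti-adhesive sialomucin, fell from 90.6, 101 and 158 CPM to 5.86, 10.4 and 5.95 CPM, a 15.8-fold difference of the means (log2 fold change -3.98, SE 0.329, adjusted p = 0.00156). Lrrn4, a leucine-rich repeat protein that marks mesothelium, fell from 45.6, 50.1 and 58.9 CPM to 2.71, 5.35 and 4.40 CPM (log2 fold change -3.63, SE 0.269, adjusted p = 0.00114). Bnc1, basonuclin, a transcription factor of mesothelium and keratinocytes, was 2.70-fold lower (log2 fold change -1.44, adjusted p = 0.0234). Msln, mesothelin, was not called, at 369, 378 and 372 CPM in ID8EV and 298, 506 and 464 CPM in 28-2EV (log2 fold change 0.18, adjusted p = 0.703). Of the 24 tested genes of this list, 4 were lower and 0 higher, the median log2 fold change was -0.53, and 20 lay below 0. DESeq2 called 7 lower and 0 higher, and without 28-2EV replicate 2 edgeR called 6 lower and 0 higher, with a median of -0.29.

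**Figure D3:**
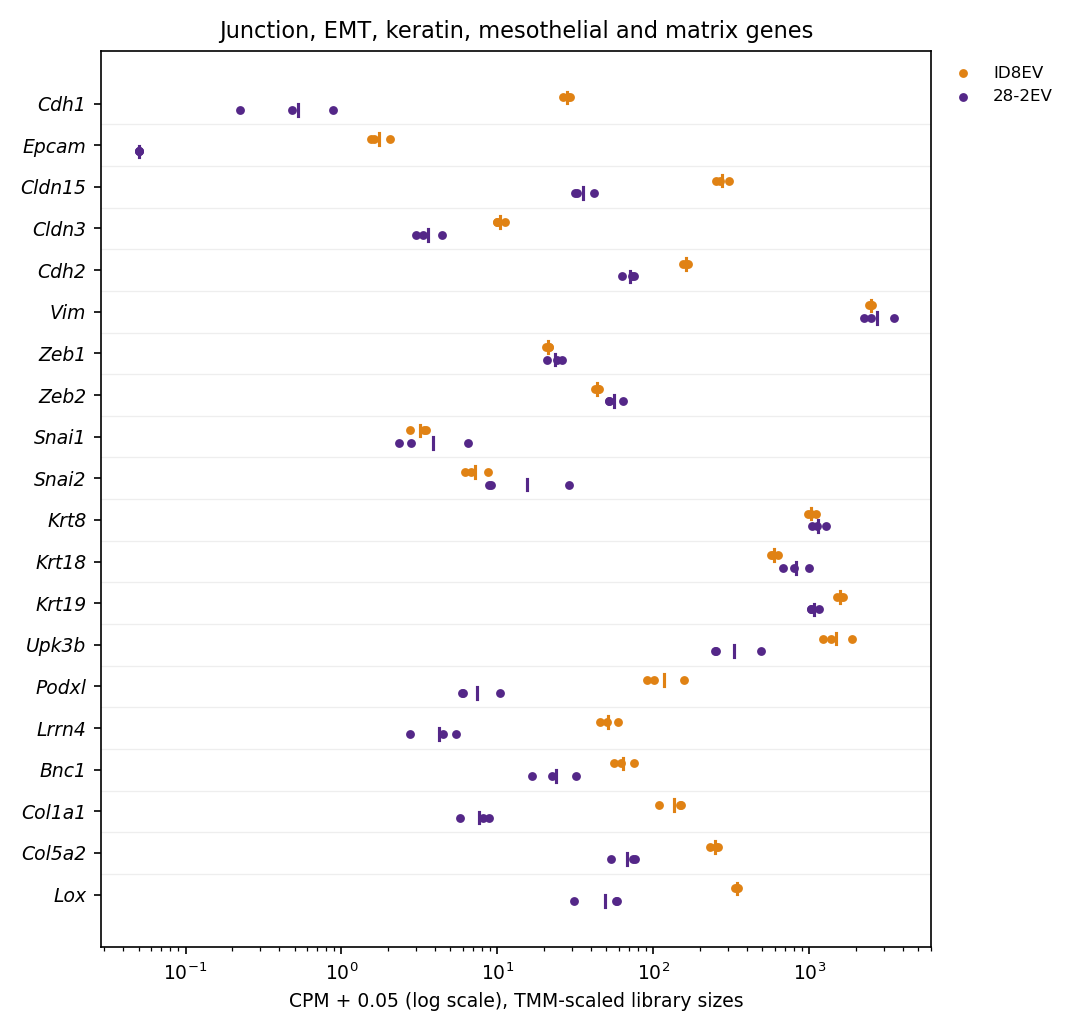
CPM plus 0.05 in each EV library is drawn on a log scale for junction, EMT, keratin, mesothelial and matrix genes, with short bars at the group means. Cdh1, Epcam, Cldn15, Podxl, Lrrn4 and Col1a1 lie far to the left in 28-2EV, whereas the points of Vim, Zeb1 and Krt8 overlap between the lines.

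Surface antigens that are used to sort or target ovarian tumour cells were likewise lower in 28-2EV or not called. Besides Epcam, Ly6e fell from 10.4, 12.6 and 15.3 CPM in ID8EV to 0.387, 0.349 and 1.18 CPM in 28-2EV (log2 fold change -4.33, SE 0.465, adjusted p = 0.00419). Cd24a, a mucin-like antigen, was 7.32-fold lower (log2 fold change -2.85, adjusted p = 0.0181). Nt5e, the ectonucleotidase CD73, had 11, 17 and 15 counts in ID8EV and 0 in 28-2EV. Of the 16 tested, these 4 were lower and 0 higher, and without 28-2EV replicate 2 5 were lower and 1 higher. Erbb2, Folr1, Muc16 and Msln, which are also ovarian cancer antigens, had adjusted p of 0.342 to 0.93.

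Collagen genes were lower in 28-2EV where they differed. Col1a1, the alpha 1 chain of fibrillar collagen I, measured 151, 148 and 108 CPM in ID8EV and 5.75, 8.84 and 8.05 CPM in 28-2EV, an 18-fold difference of the means (log2 fold change -4.17, SE 0.230, adjusted p = 0.000501). Col5a2, a chain of collagen V, measured 230, 254 and 260 against 53.6, 76.6 and 74.5 CPM (log2 fold change -1.86, SE 0.167, adjusted p = 0.0022). Lox, lysyl oxidase, which cross-links collagen and elastin, measured 335, 351 and 346 against 31.0, 58.5 and 57.7 CPM (log2 fold change -2.81, SE 0.252, adjusted p = 0.0022). For all 3 genes every ID8EV library was above every 28-2EV library. Col11a1 had 297 counts over ID8EV and 3 over 28-2EV, 83.4 times the level, with an exact 95% interval of 28.3 to 407 that covers counting error only. Col12a1 was 8.15-fold lower (adjusted p = 0.0164). The test was possible for 22 collagen chains, of which these 4 fell and 0 rose, and 18 of the 22 had a log2 fold change below 0 (median -0.45). DESeq2 called 6 lower, and without 28-2EV replicate 2 edgeR called 9 lower and 1 higher. CPM are not divided by gene length, so they are not compared between genes. Of the 5 tested fibroblast markers, Col1a1 and Acta2, smooth muscle actin, were lower and 0 higher, with 3 lower without 28-2EV replicate 2, and the part of such cells in these results was not tested.

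Basement membrane genes had the same direction. Fras1, a basement membrane protein of epithelia, fell from 35.9, 36.7 and 60.7 CPM to 4.64, 6.16 and 10.6 CPM (log2 fold change -2.64, SE 0.359, adjusted p = 0.0107). Pxdn, peroxidasin, which cross-links collagen IV, fell from 77.8, 73.7 and 75.8 CPM to 21.7, 22.7 and 12.6 CPM (log2 fold change -1.99, SE 0.227, adjusted p = 0.00534). Egflam, or pikachurin, a dystroglycan ligand, was 80.3-fold lower (log2 fold change -6.22, SE 0.568, adjusted p = 0.00235). Of 15 tested, 4 were lower, 0 were higher and the median log2 fold change was -0.37. Perlecan (Hspg2), Sparc and the laminin chains Lama5, Lamb1, Lamb2 and Lamc1 had adjusted p of 0.186 to 0.871. Of 27 interstitial matrix genes, Lox, Vcan and Emilin2 were lower and 0 higher, and the list's median was 0.04. Without 28-2EV replicate 2 4 were lower and 1 higher. Vcan, versican, was uneven within ID8EV, at 31.1, 24.6 and 10.7 CPM, against 2.82, 4.77 and 1.73 CPM in 28-2EV (adjusted p = 0.0241). Among 35 matrix proteases and inhibitors, Mmp16, a membrane-bound metalloproteinase with 242 counts over ID8EV and 0 over 28-2EV, and Reck, a membrane inhibitor of such enzymes, were lower, while Adamts14, a procollagen peptidase, was 2.13-fold higher (adjusted p = 0.0152). In that list 7 genes were lower and 1 higher without 28-2EV replicate 2. No call was made among 13 integrins with edgeR, and 1 was higher and 1 lower at an unadjusted p under 0.05. DESeq2 called 1 integrin higher, as did edgeR without 28-2EV replicate 2.

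Slit2 and Slit3 were lower in 28-2EV, as was Fscn1, fascin, the actin bundler of filopodia. Slit3, a secreted ligand of Robo receptors, measured 42.2, 49.9 and 66.0 CPM in ID8EV and 0, 0.0582 and 0.0619 CPM in 28-2EV. Those were 3284 counts against 2, 1380 times the level (interval 383 to 11400), and its adjusted p of 0.000226 was the smallest of all genes tested, shared with Thbd. Slit2 measured 10.3, 11.2 and 8.95 CPM against 0.0553, 0 and 0.557 CPM (log2 fold change -5.64, SE 0.767, adjusted p = 0.0107). Fscn1 fell from 33.6, 36.7 and 24.7 CPM to 0, 0.349 and 0.186 CPM (log2 fold change -7.44, SE 0.552, adjusted p = 0.00114). Sema7a, a membrane-anchored semaphorin, went the other way, from 15.3, 13.1 and 18.2 CPM to 42.1, 30.4 and 50.5 CPM (log2 fold change 1.40, adjusted p = 0.0181). Of 40 tested semaphorin, Slit and ephrin pathway genes, 2 were lower and 1 higher, with a median of -0.26. DESeq2 called 7 lower and 2 higher, and edgeR without 28-2EV replicate 2 10 lower and 5 higher. Thbd, thrombomodulin, an anticoagulant surface receptor, fell from 51.1, 49.0 and 45.1 CPM to 2.71, 1.98 and 2.11 CPM (log2 fold change -4.41, SE 0.186, adjusted p = 0.000226).

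Other genes with large differences belonged to none of these lists. Vat1l, a vesicle amine transport-like protein, had 1561 counts over ID8EV and 1 over 28-2EV, 1320 times the level (interval 236 to 52000). Gria3, an AMPA receptor subunit, had 641 counts against 1, 540 times the level (interval 96.6 to 21400). Pcp4l1 fell from 27, 36.7 and 48.1 CPM to 0.276, 0.407 and 0 CPM (log2 fold change -7.29, SE 0.572, adjusted p = 0.00126). Kcnd2, a voltage-gated potassium channel, fell from 17.8, 22.4 and 32.5 CPM to 0.718, 0 and 0.186 CPM (log2 fold change -6.27, SE 0.712, adjusted p = 0.00532). Tmtc1, an O-mannosyltransferase of cadherins, was 85.6-fold lower (log2 fold change -6.38, SE 0.342, adjusted p = 0.000501). Aqp5, a water channel of secretory epithelia, was more modestly lower, at 146, 167 and 191 CPM against 65.0, 74.1 and 72.6 CPM (log2 fold change -1.25, SE 0.138, adjusted p = 0.0048).

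Receptor and ligand genes of growth factor pathways differed in both directions. Among 32 receptor tyrosine kinases tested, Erbb4, Kit, Ror1 and Flt1 were lower and Ddr2 and Fgfr1 higher, with a median log2 fold change of -0.32. DESeq2 called 7 lower and 2 higher, and edgeR without 28-2EV replicate 2 8 lower and 2 higher. Ddr2, a receptor for fibrillar collagen, rose from 1.32, 0.390 and 0.216 CPM in ID8EV to 26.5, 12.6 and 29.6 CPM in 28-2EV (log2 fold change 5.21, SE 0.643, adjusted p = 0.00727), in the line in which Col1a1 and Col5a2 were lower. Fgfr1, a fibroblast growth factor receptor, rose from 79.8, 79.7 and 90.4 CPM to 145, 145 and 209 CPM (log2 fold change 1.00, SE 0.173, adjusted p = 0.0228). Ror1, a Wnt5a receptor, fell from 62.5, 56.4 and 50.3 CPM to 18, 26.9 and 16.4 CPM (log2 fold change -1.46, SE 0.213, adjusted p = 0.0138). Flt1, a VEGF receptor, was 2.11-fold lower (adjusted p = 0.0225), and Kit, the stem cell factor receptor, was low in both lines, at means of 1.42 and 0.217 CPM.

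The TGF-beta, activin and BMP list had 40 tested genes, of which 5 fell and 1 rose, and its median was -0.21. Bmp2, a BMP ligand, fell from 26.6, 29.1 and 29.6 CPM to 6.08, 10.9 and 6.38 CPM (log2 fold change -1.87, SE 0.250, adjusted p = 0.0104). Its receptor Bmpr1b was 8.96-fold lower (log2 fold change -3.15, SE 0.241, adjusted p = 0.0012). Smad1, a transducer of BMP signals, had 23, 18 and 28 counts in ID8EV and 0 in 28-2EV. Bmp6, another ligand, had 91 counts over ID8EV and 3 over 28-2EV, 25.6 times the level (interval 8.47 to 126), and Smad6, an inhibitory Smad, was also lower (log2 fold change -0.87, adjusted p = 0.0434). Tgfb1 was the gene of this list that rose, from 36.4, 34.9 and 36.8 CPM to 56.9, 54.3 and 62.4 CPM (log2 fold change 0.68, SE 0.118, adjusted p = 0.0231). In the Wnt list, 4 of 33 tested genes fell and 0 rose, and the median was -0.48. Lrp5, a Wnt co-receptor, fell from 62.5, 58.8 and 66.2 CPM to 15.3, 13.6 and 18.2 CPM (log2 fold change -1.99, SE 0.154, adjusted p = 0.0012). The receptor Fzd6 was 3.82-fold lower (adjusted p = 0.0112), Fzd8 32.6-fold lower (adjusted p = 0.0183), and Axin2, a feedback gene that Wnt signals induce, 6.02-fold lower (adjusted p = 0.01). For comparison, DESeq2 called 9 lower and 1 higher in the TGF-beta list and 10 lower and 2 higher in the Wnt list. With edgeR without 28-2EV replicate 2, the counts were 12 lower and 3 higher for TGF-beta and 11 lower and 4 higher for Wnt. Among Notch genes, the ligand Jag1 rose from 50.6, 44.9 and 35.5 CPM to 93.1, 168 and 109 CPM (log2 fold change 1.5, SE 0.249, adjusted p = 0.02), while the target Hey1 was low and fell (adjusted p = 0.0104). These were the 2 calls among 14 Notch genes, against 3 higher and 2 lower without 28-2EV replicate 2.

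Igfbp4, a binding protein for insulin-like growth factors, measured 330, 353 and 373 CPM in ID8EV and 1080, 674 and 820 CPM in 28-2EV (log2 fold change 1.28, SE 0.190, adjusted p = 0.0145). With Igfbp3 unread, the 2 called genes of the insulin-like growth factor axis, of 9 tested, moved in opposite directions, and without 28-2EV replicate 2 2 were higher and 1 lower. Among 30 tested lineage transcription factors, 4 were lower, among them Emx2, Prrx1 and Bnc1, and Sox9 was higher. Without 28-2EV replicate 2 7 were lower and 2 higher. Sox9 rose from 19.7, 20.9 and 20.5 CPM to 41.3, 56.1 and 39.0 CPM (log2 fold change 1.16, SE 0.172, adjusted p = 0.0145). Hoxa7 was the called gene of 20 Hox genes and was 6.12-fold lower (adjusted p = 0.0107).

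Besides Ddr2, 15 genes passed as higher in 28-2EV. Scube3, a secreted EGF-domain protein, rose from 11.7, 11.8 and 11.2 CPM in ID8EV to 74.7, 133 and 117 CPM in 28-2EV (log2 fold change 3.23, SE 0.233, adjusted p = 0.00109). Nptxr, the neuronal pentraxin receptor, rose from 32.6, 34.5 and 34.1 CPM to 133, 144 and 170 CPM (log2 fold change 2.14, SE 0.135, adjusted p = 0.000711). Extl1, an exostosin-like glycosyltransferase of heparan sulphate synthesis, rose from 2.41, 1.56 and 2.55 CPM to 74.9, 52.3 and 43.2 CPM, 26.1-fold by the means (log2 fold change 4.70, SE 0.301, adjusted p = 0.000711). None of these values overlapped between the lines. B4galnt1, which makes the gangliosides GM2 and GD2, rose 2.50-fold (log2 fold change 1.32, SE 0.161, adjusted p = 0.00673). St8sia1, another enzyme of ganglioside synthesis, passed as lower (log2 fold change -2.84, adjusted p = 0.00282, edgeR), and the gangliosides were not measured. Cd276, the immune checkpoint ligand B7-H3, rose from 22.5, 21.5 and 24.2 CPM to 56.0, 50.9 and 71.7 CPM (log2 fold change 1.39, SE 0.163, adjusted p = 0.00588). Cx3cl1, fractalkine, a membrane-bound chemokine, rose from 9.54, 9.45 and 9.90 CPM to 29.8, 37.1 and 35.7 CPM (log2 fold change 1.83, SE 0.152, adjusted p = 0.00157). Tfpi, an inhibitor of tissue factor, rose 8.24-fold, in the line in which Thbd fell (log2 fold change 3.04, SE 0.293, adjusted p = 0.0027). Ecscr, a surface protein of endothelium, rose 3.21-fold, the phosphatase Ptpre 3.52-fold, the transcription factor Creb5 2.76-fold and the meiotic gene Brme1 3.24-fold.

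The other 4 of the 16 were low in ID8EV and are named after their values were seen. Aim2, a cytosolic DNA sensor, rose from 0.690, 0.828 and 0.605 CPM to 6.13, 6.46 and 7.56 CPM (log2 fold change 3.24, SE 0.274, adjusted p = 0.00173). Ksr2, a scaffold of the MAPK cascade, rose 6.16-fold (adjusted p = 0.00952). Hc, complement component C5, had 164 counts over 28-2EV and 1 over ID8EV, 195 times the level (interval 34.4 to 7730). Rbp2, a cellular retinol-binding protein, had 224 counts against 3, 88.6 times the level (interval 29.9 to 433).

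Glutathione transferases, which conjugate electrophiles to glutathione, were higher in 28-2EV where they differed. Gstm2 measured 4.71, 10.1 and 9.04 CPM in ID8EV and 68.9, 33.3 and 192 CPM in 28-2EV (log2 fold change 3.61, SE 0.664, adjusted p = 0.0296). Gstt1 measured 1.15, 1.61 and 1.69 against 11.8, 4.71 and 20.2 CPM (adjusted p = 0.0239), and Gstk1 0.172, 0.0975 and 0.0865 against 1.55, 0.698 and 1.80 CPM (adjusted p = 0.0187). In all 3 genes 28-2EV replicate 2 was the lowest of its group. Gstm1, a close copy of Gstm2 with which it can share reads, measured 8.79, 13.5 and 10.3 against 57.8, 11.3 and 158 CPM, overlapped and missed the threshold (adjusted p = 0.14). Of 48 tested NRF2 targets and glutathione transferases, 4 were higher, including the efflux pump Abcc4, and 0 lower, with a median of 0.31. DESeq2 called 13 higher and 0 lower, and without 28-2EV replicate 2 edgeR called 16 higher and 0 lower.

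**Figure D4:**
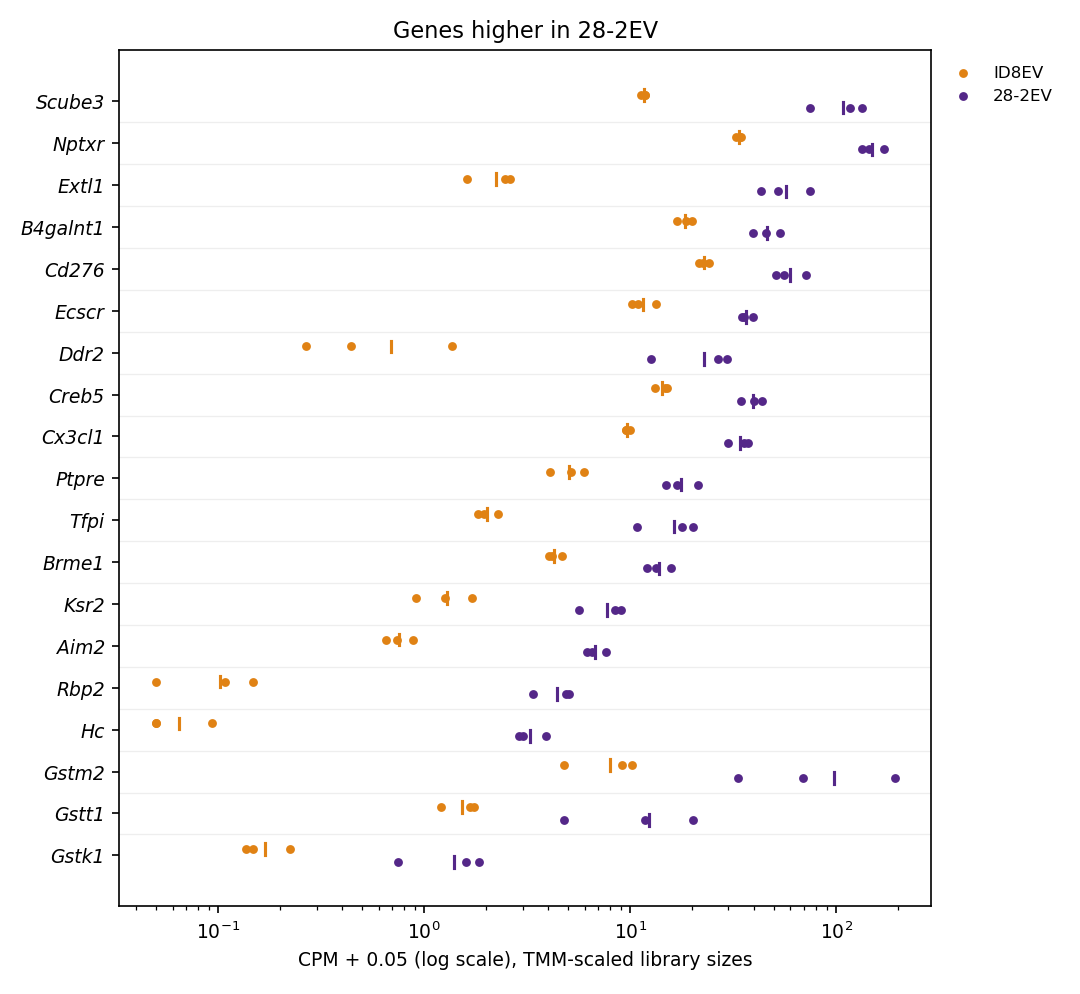
CPM plus 0.05 in each EV library is drawn on a log scale for the 16 genes that passed as higher in 28-2EV and for 3 glutathione transferases that were higher at an adjusted p under 0.05. The 3 values of 28-2EV lie to the right of the 3 of ID8EV for every gene, with the widest spread for Gstm2, from 33.3 to 192 CPM.

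Smaller rises were called among response genes. Of 27 NF-kB and TNF response genes, Icam1, Relb and Traf2 were higher and Irak3, a brake on Toll-like receptor signalling, lower. Icam1, a leukocyte adhesion molecule, rose from 38.7, 38.4 and 35.4 CPM to 63.0, 93.4 and 73.4 CPM (log2 fold change 1.03, SE 0.167, adjusted p = 0.0183). Of 29 MAPK output genes, Spry4, a feedback inhibitor, and Ier2, an immediate early gene, were higher and 0 lower. The median of that list was 0.38, and 0.14 without 28-2EV replicate 2, where 5 were higher and 1 lower. Of 34 glycolysis and hypoxia genes, Car12 and the glucose transporter Slc2a3 were higher and 0 lower, Slc2a3 from 28.3, 24.4 and 27.8 CPM to 52.1, 48.4 and 45.5 CPM (adjusted p = 0.0154). Without 28-2EV replicate 2, 10 genes of that list were higher.

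Several programmes showed no called gene in the fit of all 6 libraries, and each of the 4 lists given here had called genes when 28-2EV replicate 2 was left out. Of 35 interferon-stimulated genes none passed an adjusted p of 0.05 with edgeR, with 4 higher and 1 lower at an unadjusted p under 0.05 and 1 lower with DESeq2. Their median log2 fold change of 0.37 turned to -0.49 without 28-2EV replicate 2, where 9 genes were called lower. Isg15, a ubiquitin-like interferon-induced protein, was high in that library alone, at 1.49, 20.9 and 1.61 CPM in 28-2EV against 0.747, 0.585 and 0.951 CPM in ID8EV (adjusted p = 0.183). None of 56 DNA replication and mitosis genes was called with edgeR at an adjusted p of 0.05, at an unadjusted p under 0.05 or with DESeq2, and the list's median was 0.12, with 40 genes above 0. Without 28-2EV replicate 2 the median turned to -0.20, with 45 of the 56 below 0 and 1 called lower. None of 31 cholesterol synthesis and uptake genes was called with edgeR, with 2 higher and 6 lower at an unadjusted p under 0.05 and 2 lower with DESeq2. Their median was -0.32, and -0.14 without 28-2EV replicate 2, where 3 were lower. All 51 tested ribosomal protein genes had a log2 fold change above 0, with a median of 0.43, against 6914 of all 13073 genes tested. Of the 51, 39 did not overlap, while 10.4% of all genes were higher without overlap. None of the 51 passed an adjusted p of 0.05 with edgeR, while 37 did at an unadjusted p under 0.05 and 17 with DESeq2. Without 28-2EV replicate 2 edgeR called 34 of the 51 higher, with a median of 0.53. Rpl30, the one with the smallest adjusted p (0.0747), measured 345, 385 and 328 CPM in ID8EV and 587, 464 and 570 CPM in 28-2EV. With limma on log2(TPM + 1), 49 of the 51 were above 0.

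The genes lower in 28-2EV were spread over all chromosomes, with the highest share on the X chromosome. At an adjusted p under 0.05, 30 of 403 tested X-linked genes were lower (7.44%) and 1 was higher, Ripply1. On the autosomes 1.23% to 4.7% of the tested genes were lower, and over all chromosomes 2.52%. Of the 56 genes read in ID8EV only, 7 were X-linked, 12.5%, against 3.08% of all genes tested. The median log2 fold change of X-linked genes was -0.06, and chromosome medians ran from -0.22 on chromosome 1 to 0.22 on chromosome 15. Xist, the RNA of the inactive X, was read at 400, 321 and 268 CPM in ID8EV and at 454, 484 and 353 CPM in 28-2EV (adjusted p = 0.375, edgeR), and of 8 Y-linked genes only Eif2s3y had a read, 1 count in 28-2EV.

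Some of the lower genes were neighbours. In the order of GENCODE mouse M21, 28 pairs of tested genes next to each other were both lower and 7 both higher, and 8 of the lower pairs were X-linked. How many pairs the gene order alone would give was not worked out, so these counts are a description. Some pairs hold numbered gene models, and some hold members of a family, such as Tcaf1 and Tcaf2. Prrg3, Gabre and Gabra3 form such a run on the X chromosome, and Gabre and Gabra3 encode subunits of the GABA-A receptor. Armcx3 and Armcx2, members of the same family, were both at 0 counts in all 28-2EV libraries, as were Zic2 and Zic5 on chromosome 14. Pcdh19, Tspan6 and Sytl4 form another run. Rtl8a and Rtl8b, retrotransposon-derived genes, are near-identical copies whose reads the counting could split, so their values are uncertain.

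The study chose a list of EMT and migration genes from the miR-200 response in these same libraries, so its direction is no independent evidence. Of its 34 genes, 32 were tested between the EV lines. Igfbp3, Tiam1, Col1a1, Vcan and Flt1 were lower in 28-2EV and Igfbp4 was higher, and the median log2 fold change was -0.04. DESeq2 called 8 lower and 5 higher, and edgeR without 28-2EV replicate 2 8 lower and 7 higher, with a median of 0.05. Tiam1, an activator of the GTPase Rac, had 72, 71 and 71 counts in ID8EV and 0 in 28-2EV. Flt4, a VEGF-C receptor, measured 411, 402 and 557 CPM in ID8EV and 189, 178 and 293 CPM in 28-2EV without overlap (adjusted p = 0.0618). Sema3b, a secreted semaphorin, measured 1.32, 1.41 and 1.12 CPM against 4.31, 3.66 and 15.8 CPM, also without overlap (adjusted p = 0.073). Both missed the threshold.

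The same contrast was then read in the 200f libraries, which share no library with the EV ones. Drug doses differed between the 200f lines, so line and dose cannot be told apart in that contrast. There, 302 of 12713 genes passed (2.38%), 167 higher (1.31%) and 135 lower (1.06%) in 28-2-200f. At an adjusted p under 0.05 alone, 614 were higher (4.83%) and 586 lower (4.61%), 1200 together (9.44%). Of the 30 X-linked genes lower in 28-2EV, 26 were tested there, of which 8 were lower and 6 higher in 28-2-200f at that threshold. Of the 128 genes that passed between the EV lines, 114 were tested, 93 of them had the same sign (81.6%), and 39 passed in the same direction, 33 lower and 6 higher. Those 39 are 30.5% of the genes that passed between the EV lines and 12.9% of those that passed between the 200f lines. All 12 tested genes that were higher in 28-2EV had a positive sign in 28-2-200f. The share with the same sign over all genes tested was not worked out, so these signs have no base beside them. Cdh1 measured 36.9, 35.1 and 33.4 CPM in ID8-200f and 2.98, 4.69 and 1.54 CPM in 28-2-200f (log2 fold change -3.52, SE 0.315, adjusted p = 0.000471). Prrg3 was at 0 in all 28-2-200f libraries and at 12, 9.34 and 11.9 CPM in ID8-200f. Cldn15, Lrrn4, Col1a1 and Lox were lower there too, at log2 fold changes of -2.13, -3.63, -2.19 and -2.41. Aim2 measured 0.573, 0.133 and 0.229 CPM in ID8-200f and 26.5, 23.8 and 21 CPM in 28-2-200f (log2 fold change 6.22, SE 0.363, adjusted p = 8.62e-05). B4galnt1 measured 6.88, 7.03 and 5.09 against 53.5, 50.2 and 54.5 CPM (log2 fold change 3.05, adjusted p = 4.68e-05).

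Other EV differences did not pass with 200f. Armcx3 and Tspan7, a tetraspanin of the X chromosome, passed in the opposite direction there, at log2 fold changes of 2.02 and 2.61. Col5a2 (log2 fold change -1.16, adjusted p = 0.211), Podxl (-0.58, 0.241), Cdh2 (-0.44, 0.319) and Lrp5 (-0.85, 0.247) kept their sign and missed the threshold with edgeR in the 200f contrast. The interaction of line and vector had an adjusted p of 0.636 for Col5a2, 0.286 for Lrp5 and 0.245 for Cdh2, so a difference between the contrasts was not shown for these 3, and one of 0.00105 for Podxl. Scube3, Extl1, Ddr2 and Hc were too low to test there. A single library stood apart for some of these genes, since Col5a2 measured 23.8, 15.8 and 84.3 CPM in 28-2-200f, and Lrp5 17.0, 26.9 and 66.1 CPM.

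**Figure D5:**
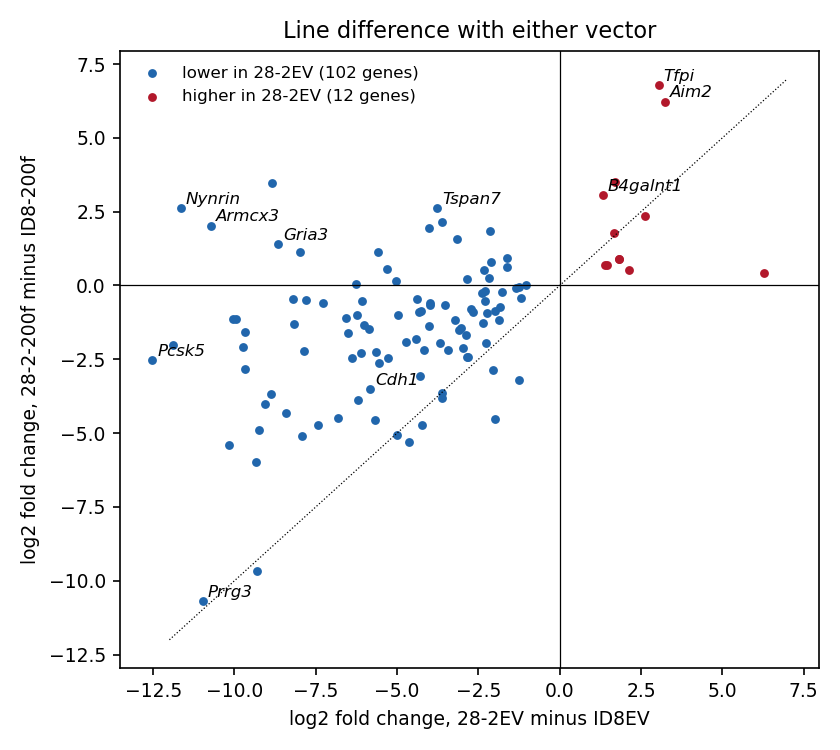
Each point is 1 of the 114 genes that passed between the EV lines and were tested between the 200f lines, with its log2 fold change in the EV libraries on the x axis and in the 200f libraries on the y axis, and the dotted line marks equal values. The 12 genes higher in 28-2EV lie above 0 in both, and 81 of the 102 lower genes lie below 0 in both. Fold changes of genes at 0 counts in a group depend on the prior count.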

How the data were processed

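RNA was extracted with the miRVana kit and sequenced by Novogene. On the Genialis platform the authors ran BBDuk for trimming, STAR for alignment to GRCm39 and featureCounts for counting. The deposited tables give raw counts, TPM and CPM per gene for each library: the raw counts were tested, the deposited TPM served an alternative, and the deposited CPM, scaled by the authors to each library's total, were not used. The sources used here give no aligner version, annotation release, strand setting or test. Without strand, overlapping and antisense genes cannot be told apart.

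The 3 28-2EV and 3 ID8EV libraries were fitted alone with the quasi-likelihood test of edgeR 4.0.16 (R 4.3.3). The fit used TMM-scaled counts of the genes that filterByExpr kept (minimum count 10, minimum total 15), with Benjamini-Hochberg adjustment over all of them. The procedure was also tested on simulated data, with the same spread in both lines and smaller changes than the largest found here. That simulation did not cover the wider spread of 28-2EV. Log2 fold changes are 28-2EV minus ID8EV, and SE is the fold change divided by the root of the F statistic. CPM in the text use TMM-scaled library sizes. Members of 51 gene lists were counted at an adjusted p under 0.05, with no set test. The members and lists were chosen with earlier results of these data known. P-values set the line difference against the spread between libraries of a line. The study calls the 3 libraries of a line biological replicates. How they were kept apart is not given in the sources used here, so part of the spread may be technical. No library pair agreed within sampling noise (chi-square per degree of freedom 5.42 to 145).

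Named genes were those that passed with the 12 largest fold changes each way (mean over the 6 libraries at least 5 CPM, groups without overlap) and the 6 largest CPM differences each way, up to 8 genes read in one line only, up to 4 genes per list and direction, all keratins and RT-qPCR genes, and the 3 smallest adjusted p each way. Outside the lists, numbered gene models, pseudogenes and genes without a symbol were skipped. Other genes named were chosen after their values were seen, and some members of the lists are not reported here by name. Alternatives were DESeq2 1.42.0, limma 3.58.1 on log2(TPM + 1), RLE and library-size scaling, 2 other filters, all 4 groups in one fit, a test against a fold change of 2, a replicate block, and leaving out each library. The interaction of line and vector over all 12 libraries was added after the values were seen. Chromosomes and gene order came from GENCODE mouse M21 by gene ID, which placed 12862 tested genes, and promoters from RefSeq GRCm38.p6, a build other than that of the counts.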

Additional observations from a re-analysis of the deposited data

Results flagged for a closer look

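For 32 of the named genes the difference between the lines was not the same with the empty vector and with the miR-200 vectors, by the interaction of line and vector in 1 edgeR fit over all 12 libraries at an adjusted p under 0.01. Over all genes, 173 of 13620 met that threshold, and 47 of the 128 genes that passed between the EV lines. The 128 were picked for their EV differences, and the interaction uses those same EV values. Apart from keratins and RT-qPCR genes, the named genes were picked that way too. Such a choice favours interaction calls and smaller differences with 200f, so these counts are only a description. Each bracket below gives the log2 fold change of 28-2 minus ID8 first with EV and then with 200f, and the adjusted p of the interaction. Fold changes of genes at 0 counts in 28-2EV depend on the prior count. The 200f groups differ from EV in vectors and in drug doses, which cannot be told apart.

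By edgeR, the sign was opposite in the fitted values of Nynrin (-11.64 and 2.61, adjusted p = 0.00599), Armcx3 (-10.72 and 2.02, adjusted p = 2.06e-05), Cdh10 (-8.85 and 3.47, adjusted p = 0.00178), Gria3 (-8.65 and 1.39, adjusted p = 1.73e-05), Epcam (-7.99 and 1.15, adjusted p = 0.000495), Kcnd2 (-6.27 and 0.06, adjusted p = 0.00268), H2-Q4 (-5.11 and 3.95, adjusted p = 0.000169), Bmpr1b (-3.15 and 1.58, adjusted p = 0.00299), Vcan (-2.83 and 2.45, adjusted p = 0.000523), Cldn3 (-1.55 and 0.99, adjusted p = 0.000842), Bnc1 (-1.44 and 1.34, adjusted p = 0.000742), Flt1 (-1.07 and 1.15, adjusted p = 0.00276), Krt19 (-0.57 and 0.38, adjusted p = 0.00869) and Tgfb1 (0.68 and -0.41, adjusted p = 0.00521). In the 200f contrast alone, Nynrin, Kcnd2, Bmpr1b, Krt19 and Tgfb1 had adjusted p of 0.107 to 0.956 (edgeR). A reversed direction was therefore not shown for them, and Krt19 was not called with EV either (adjusted p = 0.0707). The other genes with opposite signs had an adjusted p under 0.05 in that contrast. H2-Q4 has near-identical copies in the MHC region, so its reads are uncertain. By edgeR, the sign was the same and the difference smaller with 200f for Pcsk5 (-12.53 and -2.53, adjusted p = 0.000124), Peg3 (-11.90 and -2.01, adjusted p = 1.73e-05), Igfbp3 (-10.05 and -1.15, adjusted p = 0.00161), Vat1l (-9.94 and -1.15, adjusted p = 0.00545), Sgce (-9.75 and -2.09, adjusted p = 0.00332), Erbb4 (-9.69 and -1.59, adjusted p = 0.0021), Pcp4l1 (-7.29 and -0.60, adjusted p = 0.00457), Ripk3 (-6.01 and -1.34, adjusted p = 0.00571), Thbd (-4.41 and -1.82, adjusted p = 0.000487), Col1a1 (-4.17 and -2.19, adjusted p = 0.00322), Podxl (-3.98 and -0.58, adjusted p = 0.00105), Fzd6 (-1.93 and -0.17, adjusted p = 0.00801), Nptxr (2.14 and 0.53, adjusted p = 0.00599) and Rbp2 (6.29 and 0.41, adjusted p = 0.00586). By edgeR, the sign was the same and the difference larger with 200f for Pxdn (-1.99 and -4.53, adjusted p = 0.000495), Aqp5 (-1.25 and -3.20, adjusted p = 0.00276), B4galnt1 (1.32 and 3.05, adjusted p = 0.00105) and Aim2 (3.24 and 6.22, adjusted p = 0.00529).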

How the results depend on the processing

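The counts between the EV lines moved with the method while the direction of the 128 genes did not: all 128 kept their sign in every alternative. At the cut-off of the report DESeq2 passed 489 genes (123 higher and 366 lower), edgeR with all 4 groups in one fit 314 (66 and 248), no filter on low counts 487 (130 and 357), and a test against a fold change of 2 passed 75 (7 and 68). limma on log2(TPM + 1) passed 219, of which 203 were lower, and shifted the median log2 fold change of all genes by -0.12, against at most 0.04 in size elsewhere. An adjusted p under 0.05 alone gave 446 genes (116 higher and 330 lower). Leaving out 1 library gave 10 to 436 genes, 1 to 144 higher and 9 to 292 lower, and 59 without 28-2EV replicate 1. DESeq2 and the fit without a filter passed all 128 genes again, and the test against a fold change of 2 passed 75 of them. The cause of these shifts was not tested.

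Between the 200f lines 302 genes passed (167 higher and 135 lower), with DESeq2 572 (304 and 268), with no filter 800 (449 and 351), against a fold change of 2 111 (62 and 49) and at an adjusted p under 0.05 alone 1200 (614 and 586). Leaving out 1 library gave 80 to 473 genes, 45 to 241 higher and 35 to 232 lower.

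With at least 5 counts in each library, 91 genes were read in ID8EV only and 2 in 28-2EV only, and with at least 20 counts 32 were read in ID8EV only. With at most 1 count over the unread line, 1 was read in 28-2EV only, and leaving out 1 library gave 59 to 83 and 0 to 1.

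Replicate numbers were not taken as pairs. The correlations of the deviations of same-numbered libraries were -0.125, 0.0878 and 0.388, and those of different-numbered libraries ran from -0.378 to 0.341. Deviations within a group of 3 are tied to each other, so these few correlations cannot show that pairing is absent. With the replicate block 123 genes passed (21 higher and 102 lower), and 99 of the 128 passed again. Of the 123 named genes, 59, 57 and 54 kept their direction but lost their call without ID8EV replicates 1, 2 and 3, 30 without 28-2EV replicate 1, 50 in the test against a fold change of 2, 10 with the block and at most 7 in each other alternative. Krt10 turned to -0.04 with limma and to -0.18 without 28-2EV replicate 1 (range -0.18 to 0.31 over the left-out libraries), Krt14 to 0.09, 0.23 and 0.28 without 28-2EV replicates 1 and 3 and ID8EV replicate 1 (range -0.79 to 0.28), and Krt80, Snai1 and Vim to -0.03, -0.30 and -0.05 without 28-2EV replicate 2 (range of Snai1 -0.30 to 0.56). None of these passed the threshold in either direction.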
